A study of Homo sapiens with 2 samples.

Results

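The mitochondrial ribosome (mitoribosome) carries a protein set of its own, encoded almost entirely by nuclear MRPL genes (large subunit) and MRPS genes (small subunit). These genes were taken as the probe sets whose single platform symbol is MRPL or MRPS followed by a number and an optional letter, with 1 probe set per gene, the brightest by its mean over both arrays. The rule found 75 genes of 19775 named on the array, 48 MRPL and 27 MRPS genes. The cells were HEK293T, a human embryonic kidney line that carries the SV40 large T antigen. They were transfected with polyethylenimine with pcDNA3.1-GFP (GFP control) or with pcDNA3.1-IRX1::GFP, which encodes the homeobox transcription factor IRX1 fused to GFP. Both groups express GFP, were harvested after 48 h of transient expression and were sorted by FACS for GFP, so that transfected cells only were compared. Total RNA was hybridised to 1 HG-U133 Plus 2.0 array per condition. A legend of the study gives replicates, and whether each array holds one of them or a pool was not settled, so no error between cultures and no test can be given, and every difference below is that between 2 arrays.

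The mitoribosome translates the few messages of the mitochondrial genome, which encode core subunits of the respiratory chain complexes and of the ATP synthase. Its proteins are made in the cytosol, imported, and assembled on the 12S rRNA (small subunit) and the 16S rRNA (large subunit), both transcribed from mitochondrial DNA. Many of the proteins have a counterpart in the bacterial ribosome, while others were gained in mitochondria. Promoters of such nuclear genes for mitochondrial proteins often hold sites for ETS factors such as GABP, for NRF1 and for YY1.

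Values are MAS5 signals, which are linear intensities. Genes were kept when their mean signal reached 183.3, the 50th percentile over probe sets, which left 12193 genes. Background, set at the 90th percentile over the 107 probe sets for olfactory receptors, was 143.4 in GFP control and 178.7 with IRX1::GFP. The HEK293T markers NEFL, NEFM, LIN28B, IGF2BP1 and VIM lay above it on both arrays, PAX2 only with IRX1::GFP. Among markers of other cells, PTPRC and NPHS1 lay above it on neither array, ALB (219 and 135) only in GFP control, and the fibroblast gene COL1A1 (631 and 2571) on both. The IRX1 probe set read 33.1 in GFP control and 57.0 with IRX1::GFP, below background on both, and does not check the labels, since it is not known whether it lies in the transfected cDNA. The ratio of the 3' to the 5' probe set was 3.23 for ACTB and 1.22 for GAPDH in GFP control, and 1.64 and 1.01 with IRX1::GFP. The part of this difference in RNA quality in the results below was not tested.

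All 75 mitoribosomal protein genes passed the filter, and both signals of each lay above background. In GFP control their signals ran from 989 to 21665, with a median of 6355, and with IRX1::GFP from 1098 to 24994, with a median of 6279. All 75 also passed the 75th percentile (a signal of 905), as did 7678 genes of the array. The ratio of the IRX1::GFP signal to that of GFP control, on the log2 scale, was above 0 for 45 of the genes and below 0 for 30, and for 36 and 39 once the ratios were centred on their median over all probe sets other than controls. As deposited, its median was 0.08, beside 0.07 over the 12193 genes kept and -0.03 over the 7678 brighter ones. After that centring, the median of the mitoribosomal genes was -0.023 and that of all genes kept -0.034, so the sign of the mitoribosomal median rests on the scaling.

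Few of these genes reached the 2-fold limit that the study uses. With IRX1::GFP the signals of MRPL34 and MRPL18 were higher by 2-fold or more, 2 of 75 genes (2.67%), where 10.4% of all genes kept were that much higher. MRPL35 was at least 2-fold lower, 1 of 75 (1.33%), beside 5.34% of all genes kept. Among the 7678 brighter genes, the signal range in which all 75 lie, 6.68% were higher by 2-fold or more and 5.41% lower. At 1.5-fold, 10 mitoribosomal genes were higher (13.3%) and 9 lower (12.0%). The same shares were 22.6% higher and 15.2% lower over all genes kept, and 16.6% and 16.9% over the brighter ones. The remaining 56 genes lay within 1.5-fold. The SD of the log2 ratio over the 75 genes was 0.50, beside 0.79 over all genes kept and 0.71 over the brighter ones.

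**Figure D1:**
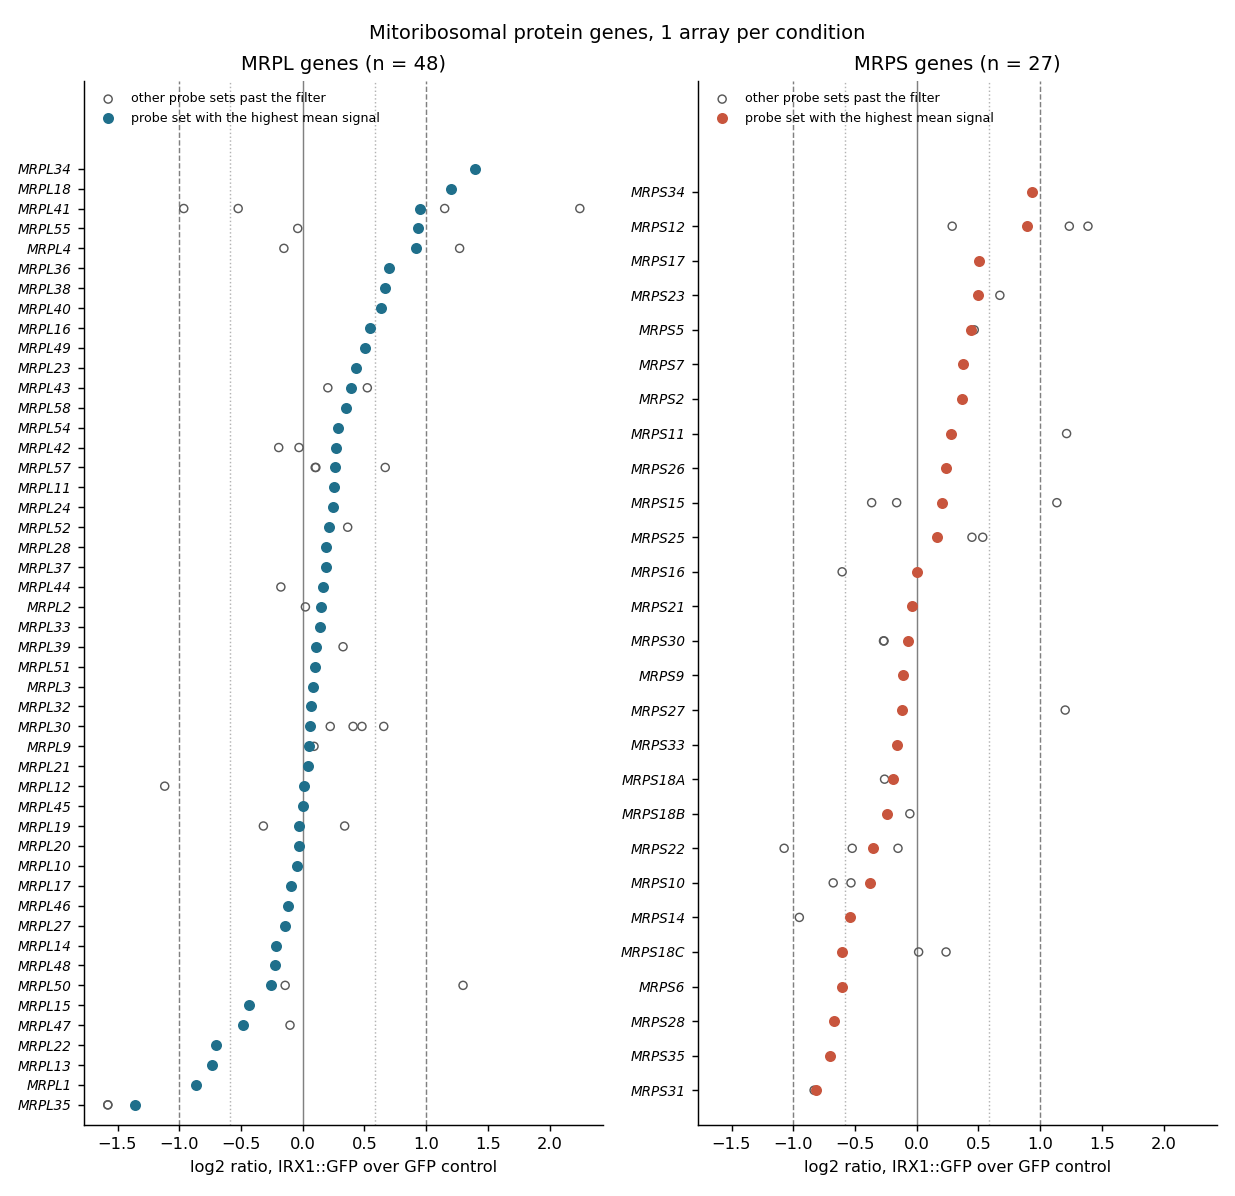
Log2 ratio of the MAS5 signal, IRX1::GFP over GFP control, for the 48 MRPL genes (left) and the 27 MRPS genes (right), ordered by value, with 1 array per condition. Filled points are the brightest probe set, open points the gene's other probe sets past the filter; dotted lines mark 1.5-fold and dashed lines 2-fold. Filled points of MRPL34 and MRPL18 lie beyond the upper dashed line and that of MRPL35 beyond the lower one, and the open points of MRPL41 spread to both sides of 0.

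The gene with the highest ratio was MRPL34, a large subunit protein with a bacterial counterpart. Its signal was 3223 in GFP control and 8480 with IRX1::GFP, or 2.63-fold higher (log2 ratio 1.40). MRPL18, whose bacterial counterpart binds 5S rRNA, read 10481 and 24127, 2.30-fold higher. Of all genes kept, 95.1% had a ratio at or below that of MRPL34 and 92.9% one at or below that of MRPL18. Each of these genes has 1 probe set, so no other probe set repeats the value.

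The other 8 genes at least 1.5-fold higher were 6 of the large and 2 of the small subunit. MRPL41 read 9926 and 19180, MRPL55 read 4780 and 9134, and MRPL4 read 4180 and 7875, each close to 1.9-fold. MRPL36 read 9078 and 14756, MRPL38 read 1179 and 1870, and MRPL40 read 7579 and 11750, with log2 ratios of 0.70, 0.67 and 0.63. MRPL38, MRPL40 and MRPL41 have no bacterial counterpart. In the small subunit MRPS34, a protein gained in mitochondria, read 2403 and 4602 (log2 ratio 0.94). MRPS12, whose bacterial counterpart lies at the decoding centre, read 12233 and 22770 (log2 ratio 0.90). No MRPS gene reached 2-fold in either direction.

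At the other end, MRPL35, a large subunit protein with a bacterial counterpart, read 3623 in GFP control and 1409 with IRX1::GFP, 2.57-fold lower (log2 ratio -1.36). Its other probe sets read 1189 and 398, and 752 and 252, a log2 ratio of -1.58 in both, so that all 3 probe sets were at least 2-fold lower. Of all genes kept, 2.26% had a ratio at or below that of MRPL35. MRPL1, whose bacterial counterpart forms the mobile stalk beside the exit of the tRNA, read 7634 and 4200 (log2 ratio -0.86). MRPL13 read 10677 and 6419, and MRPL22, whose bacterial counterpart lines the tunnel for the growing chain, read 8095 and 4972, with log2 ratios of -0.73 and -0.70. These 4 were the large subunit genes at least 1.5-fold lower.

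The 5 small subunit genes at least 1.5-fold lower were MRPS31, MRPS35, MRPS28, MRPS6 and MRPS18C. MRPS31, without a bacterial counterpart, read 4839 and 2746 (log2 ratio -0.82), and a further probe set read 4817 and 2708 (-0.83). MRPS35 read 7060 and 4349, and MRPS28 read 6908 and 4345, with log2 ratios of -0.70 and -0.67. The bacterial counterparts of MRPS6 and MRPS18C sit side by side on the small subunit. MRPS6 read 3337 and 2190 (log2 ratio -0.61) and MRPS18C read 11131 and 7322 (-0.60). MRPS14 followed with 8369 and 5752, a log2 ratio of -0.54, and its other probe set read 1263 and 653 (-0.95).

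**Figure D2:**
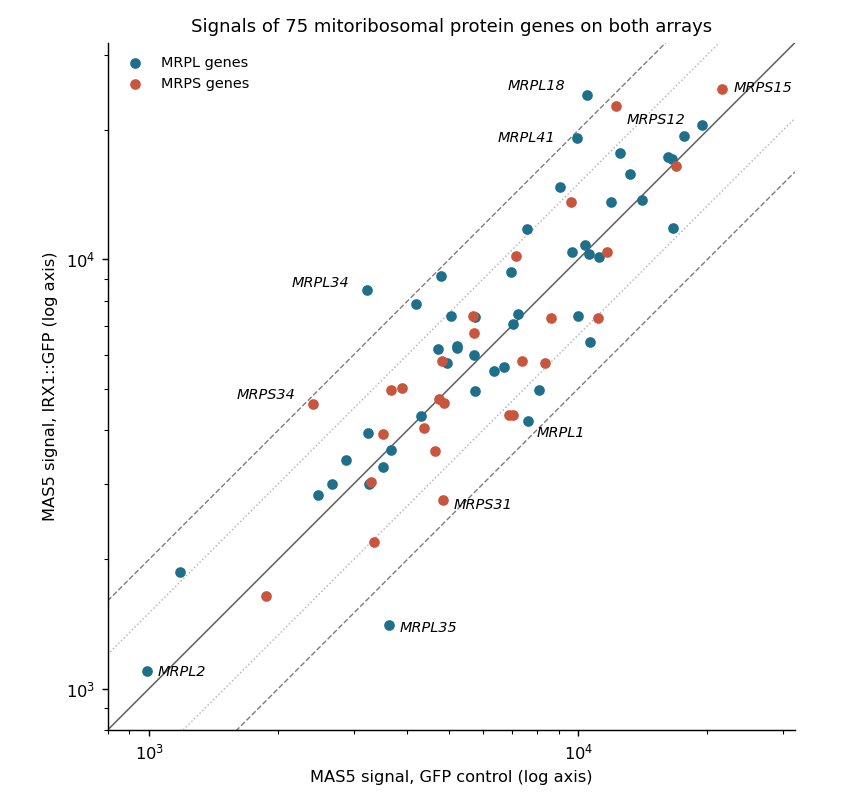
MAS5 signal in GFP control (horizontal axis) and with IRX1::GFP (vertical axis) of the 75 mitoribosomal protein genes, both axes logarithmic, 1 array per condition. The lines mark equal signals, 1.5-fold and 2-fold; 56 of the 75 points lie within 1.5-fold, with MRPL34 and MRPL18 above and MRPL35 below the 2-fold lines.

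Promoter windows that hold a match to an ETS or a YY1 core are shown for the highest and the lowest of these genes that have one. They are RefSeq windows of GRCh38.p14, from 250 bases before to 50 after an annotated gene start, printed 5' to 3' on the gene's strand. The search was for CCGGAAG (ETS core), GCGCATGC (NRF1 core), AAGATGGC (YY1 core) and TATAAA on both strands. Capitals mark every match, and a match on the opposite strand reads as its reverse complement. Where a gene has several windows, the one with the most matches is shown. The window shown for MRPL18, 1 of its 3 (chr6:159790217-159790516, plus strand), holds 1 ETS core and 1 TATAAA. The window of MRPS34 (chr16:1773085-1773384, minus strand) holds 3 ETS cores, and that of MRPS31 (chr13:40771141-40771440, minus strand) holds 1. The window of MRPL22 (chr5:154940823-154941122, plus strand) holds 1 NRF1 and 1 YY1 core, the latter near its end.
MRPL18: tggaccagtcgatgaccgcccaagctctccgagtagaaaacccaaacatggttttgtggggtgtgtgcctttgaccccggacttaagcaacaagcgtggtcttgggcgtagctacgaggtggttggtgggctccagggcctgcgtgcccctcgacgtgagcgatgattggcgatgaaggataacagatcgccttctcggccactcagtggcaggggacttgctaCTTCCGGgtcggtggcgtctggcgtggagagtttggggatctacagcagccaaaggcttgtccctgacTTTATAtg
MRPS34: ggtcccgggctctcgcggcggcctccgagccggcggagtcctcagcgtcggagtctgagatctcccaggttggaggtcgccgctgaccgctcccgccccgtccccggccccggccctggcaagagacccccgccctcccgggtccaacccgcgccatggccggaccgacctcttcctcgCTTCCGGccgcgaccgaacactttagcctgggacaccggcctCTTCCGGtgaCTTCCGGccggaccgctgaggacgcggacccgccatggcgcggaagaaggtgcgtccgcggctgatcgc
MRPS31: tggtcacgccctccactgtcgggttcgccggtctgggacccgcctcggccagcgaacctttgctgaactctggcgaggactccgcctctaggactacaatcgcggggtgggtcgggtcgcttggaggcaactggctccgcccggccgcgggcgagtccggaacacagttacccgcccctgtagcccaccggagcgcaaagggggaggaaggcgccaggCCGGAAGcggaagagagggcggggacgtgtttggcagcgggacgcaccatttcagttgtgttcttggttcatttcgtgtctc
MRPL22: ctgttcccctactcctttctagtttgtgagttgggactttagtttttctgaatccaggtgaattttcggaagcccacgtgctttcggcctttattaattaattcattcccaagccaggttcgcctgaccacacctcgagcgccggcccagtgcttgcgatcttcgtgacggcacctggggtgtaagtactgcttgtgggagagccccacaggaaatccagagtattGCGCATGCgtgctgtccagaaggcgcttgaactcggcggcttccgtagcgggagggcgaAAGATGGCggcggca

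Of the 75 genes, 67 were matched in the promoter table, with 83 windows in all. MRPL35 has no entry, and the windows of MRPL34 and MRPL1 hold neither an ETS nor a YY1 core. An ETS core lay in 32 of the 83 windows (38.6%), beside 10.3% of all 35116 windows of the table and 16.7% of those of genes past the filter. A YY1 core lay in 22 (26.5%), beside 2.89% and 4.72%, and an NRF1 core in 6 (7.23%), beside 3.05% and 4.84%. TATAAA lay in 3 windows (3.61%), beside 11.5% and 6.37%. An ETS or a YY1 core was present in 44 windows (53.0%) of 41 genes, beside 12.6% of all windows of the table. That share was not taken over the windows of genes past the filter alone. Both cores were held by 10 windows, with no overlap between them, and no such share over other windows is given. These shares describe letters in the windows and were not tested.

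The median log2 ratio was 0.10 over the 29 genes with an ETS core and 0.14 over the 38 without. It was -0.01 over the 20 genes with a YY1 core and 0.17 over the 47 without. Over the 9968 genes past the filter that have a window, the median was 0.08 with an ETS core and 0.05 without. For a YY1 core it was -0.03 with and 0.07 without, the same direction as in the mitoribosomal genes. For an ETS core the direction was opposite to that in the mitoribosomal genes. Over the 6503 genes past the 75th percentile that have a window, the medians with and without a YY1 core were close, at -0.039 and -0.034. With and without an ETS core they were 0.038 and -0.055. None of these differences was tested. The base composition of the windows moved with the ratio. Their GC content, as the mean over the windows of a gene, ran from 43.3% to 82.0%, with a median of 60.0%. The 33 genes above that median had a median log2 ratio of 0.26, and the 34 at or below it one of -0.01. Across the 67 genes, Pearson's r between GC content and log2 ratio was 0.35 and Spearman's rho 0.41. The genes are read on the same 2 arrays and are not independent replicates, so no p is given. Over the 9968 genes past the filter that have a window, r was 0.15, with medians of 0.13 above their own median GC content and -0.02 at or below it.

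By subunit, the 48 MRPL genes had a median log2 ratio of 0.12, 33 above 0 and 15 below. At 1.5-fold, 8 of them were higher (16.7%) and 4 lower (8.33%). The 27 MRPS genes had a median of -0.07, 12 above 0 and 15 below. At 1.5-fold, 2 of them were higher (7.41%) and 5 lower (18.5%). The shares higher and lower were 16.6% and 16.9% over the brighter genes, and 22.6% and 15.2% over all genes kept. Both subunits spanned most of the range, from -1.36 to 1.40 for MRPL and from -0.82 to 0.94 for MRPS genes. The difference between the medians was not tested. With the ratios centred on the median of all probe sets, 25 MRPL genes lay above 0 and 23 below, and 11 and 16 MRPS genes. The symbols do not follow the subunit for MRPS30 and MRPS18A, whose proteins lie in the large subunit.

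The 47 genes with a bacterial counterpart had a median of 0.05, and the 28 without had 0.18. Within the large subunit, 18 of the 30 genes with a counterpart lay above 0 (median 0.05), as did 15 of the 18 without (median 0.24). After centring, 12 of the 30 and 13 of the 18 lay above 0. At 1.5-fold, 5 of the 30 were higher and 4 lower, and 3 of the 18 were higher and none lower, where 16.6% of the brighter genes were higher and 16.9% lower. The share of higher genes in both was near that of the brighter genes, and these differences were not tested. The small subunit medians were -0.04 over 17 genes with and -0.09 over 10 genes without a counterpart.

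**Figure D3:**
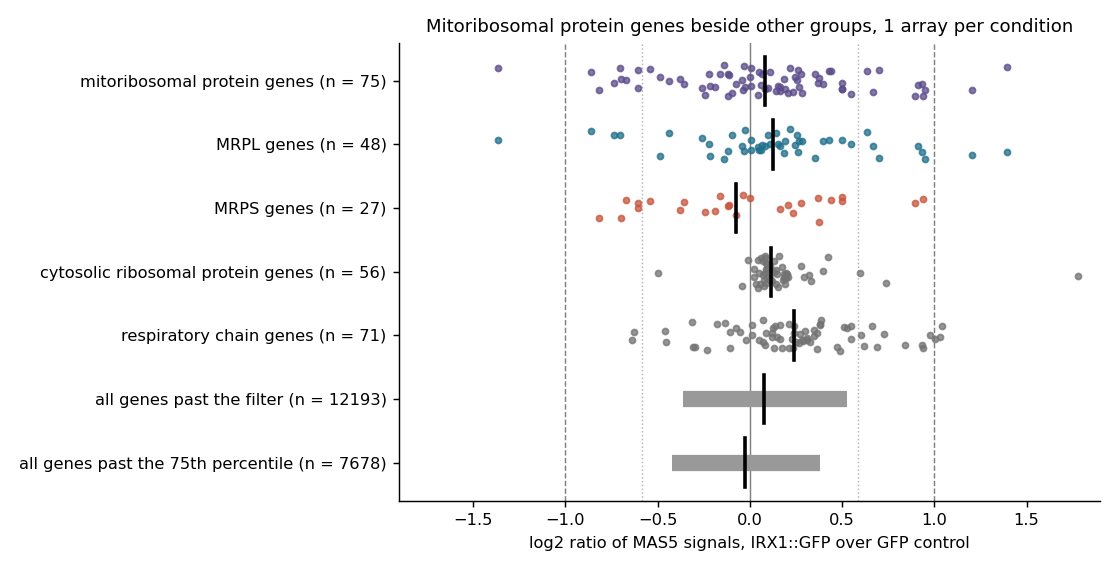
Log2 ratio, IRX1::GFP over GFP control, of single genes (points) in the mitoribosomal protein genes, the MRPL and MRPS genes among them, and the cytosolic ribosomal protein and respiratory chain genes; grey bands span the middle quartiles of all genes past the filter and past the 75th percentile, black bars mark medians, dotted lines 1.5-fold and dashed lines 2-fold. The respiratory chain genes include those of the ATP synthase. The medians run from -0.07 (MRPS) to 0.24 (respiratory chain). The SD was 0.27 for the cytosolic ribosomal protein genes and 0.50 for the mitoribosomal ones. The former had the brightest signals of these groups by median.

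MRPS18 exists as paralogs, and all 3 read lower with IRX1::GFP. MRPS18A read 1871 and 1639 (log2 ratio -0.19) and MRPS18B read 8649 and 7302 (-0.24), both within 1.5-fold, beside -0.60 for MRPS18C. The other probe sets of MRPS18C differed from that value, at 312 and 315 and at 240 and 283. MRPL12, the stalk protein that recruits translation factors and is also reported to bind the mitochondrial RNA polymerase, read 7030 and 7069 (log2 ratio 0.01). Its other probe set read 334 and 154, the latter not above background.

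The genes with the highest mean signals were MRPS15, MRPL3, MRPL33, MRPS12 and MRPL18. MRPS15 read 21665 and 24994, MRPL3, a core protein near the peptidyl transferase centre, 19418 and 20590, and MRPL33 17619 and 19402. These 3 had log2 ratios of 0.21, 0.08 and 0.14.

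Of the 56 genes within 1.5-fold, 35 had a log2 ratio between -0.25 and 0.25. They were MRPL2, MRPL3, MRPL9, MRPL10, MRPL12, MRPL14, MRPL17, MRPL19, MRPL20, MRPL21, MRPL24, MRPL27, MRPL28, MRPL30, MRPL32, MRPL33, MRPL37, MRPL39, MRPL44, MRPL45, MRPL46, MRPL48, MRPL51 and MRPL52, with MRPS9, MRPS15, MRPS16, MRPS18A, MRPS18B, MRPS21, MRPS25, MRPS26, MRPS27, MRPS30 and MRPS33. Ratios above 0.25 and short of 1.5-fold were found for MRPL11, MRPL23, MRPL42, MRPL43, MRPL54, MRPL57, MRPL58, MRPS2, MRPS5, MRPS7 and MRPS11, and, highest of this range, for MRPL16 (5052 and 7378, log2 ratio 0.55), MRPS17 (7179 and 10167, 0.50), MRPL49 (12491 and 17675, 0.50) and MRPS23 (9640 and 13607, 0.50). MRPL58 is a peptidyl-tRNA hydrolase that frees stalled mitoribosomes. Below -0.25 lay MRPL15, MRPL50, MRPS10 and MRPS22, with MRPL47 (16596 and 11854, log2 ratio -0.49) and MRPS14.

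The 75 genes have 140 probe sets, 38 genes 1 each and 37 several. Of the 65 further probe sets, 57 passed the filter. Among the 33 genes with more than 1 probe set past the filter, all probe sets had the same sign in 21 and mixed signs in 12. The SD between probe sets of a gene was 0.53, beside 0.49 over 5930 genes of the array, of similar size to the SD of 0.50 between the 75 genes.

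MRPL41 was the gene whose probe sets passed 1.5-fold in opposite directions. Beside the pair given above, they read 1976 and 4384 (log2 ratio 1.15), 515 and 358 (-0.52), and 286 and 147 (-0.96, the latter not above background). The remaining one read 79.0, not above background, and 374. MRPL4 has probe sets at 3212 and 2890 (-0.15) and at 1265 and 3052 (1.27), and the other probe set of MRPL55 read 238 and 232 (-0.04). The further probe sets of MRPS12 read 1779 and 4653 (1.39), 1608 and 3788 (1.24), and 248 and 303 (0.29). Hence the higher value of MRPS12 was seen in all its probe sets, whereas those of MRPL41, MRPL4 and MRPL55 were not uniform.

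Some genes within 1.5-fold had another probe set beyond 2-fold. MRPS11 had one at 929 and 2155, MRPS27 at 311 and 716 and MRPS15 at 181 and 398, with log2 ratios of 1.21, 1.20 and 1.14. MRPL50 had one at 130, not above background, and 321. MRPS22, in which mutations cause mitochondrial disease, had one at 6393 and 3037 (-1.07), beside 7404 and 5785 for the probe set chosen (-0.36).

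Subunits with other symbols were read from a list of 5, of which 4 were analysed here. PTCD3, a small subunit protein with RNA-binding repeats, read 4860 and 2698 (log2 ratio -0.85). GADD45GIP1, of the large subunit, read 2319 and 3764 (0.70). DAP3, the GTP-binding protein of the small subunit, read 11110 and 9091, and CHCHD1 15514 and 14018. The median over the 4 was -0.22, with 1 gene at least 1.5-fold higher and 1 lower. Over all genes kept 22.6% were higher and 15.2% lower, and nothing is read from so few genes.

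The counts of the lists that follow stand beside the shares over all genes kept, of which 10.4% were higher and 5.34% lower at 2-fold, and 22.6% and 15.2% at 1.5-fold, and with so few genes in a list nothing is read from them. Of 26 assembly factors and rRNA enzymes, 25 passed the filter (not GTPBP10), with a median log2 ratio of 0.14. At 2-fold 3 were higher and 1 lower, and at 1.5-fold 5 and 3. METTL15, which methylates the 12S rRNA, read 1755 in GFP control and 436 with IRX1::GFP, 4.02-fold lower. MPV17L2, needed for large subunit assembly, read 906 and 2266 (log2 ratio 1.32), and RBFA, a small subunit maturation factor, 947 and 2092 (1.14). MRM1, a methyltransferase of the 16S rRNA, read 138 and 373, the former not above background.

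Of 16 translation factors 15 were analysed here, with a median of 0.06 and none beyond 2-fold. At 1.5-fold MTRFR, a rescue factor, was higher (log2 ratio 0.68), and the release factor MTRF1L (-0.66) and the elongation factor GUF1 (-0.63) were lower. Of 17 mitochondrial tRNA synthetases 15 were analysed here, with a median of -0.09, also none of them beyond 2-fold. FARS2 (-0.96) and WARS2 (-0.70) lay below 1.5-fold, and no synthetase lay above it.

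The 14 genes for transcription and replication of mitochondrial DNA, the source of the 12S and 16S rRNA, had a median of -0.05. POLRMT, the mitochondrial RNA polymerase, read 795 and 1702 (log2 ratio 1.10), and the exonuclease MGME1 read 24178 and 11691 (-1.05), the one gene beyond 2-fold in each direction. The helicase TWNK read 3396 and 6763 (0.99), and the polymerase subunit POLG2 had a log2 ratio of -0.70. At 1.5-fold 3 were higher and 2 lower.

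Of 10 regulators of nuclear genes for mitochondrial proteins, 9 passed the filter (not PPARGC1A), with a median of -0.17. The nuclear receptor ESRRA read 1017 and 2373 (log2 ratio 1.22) and MYC 1341 and 2354 (0.81). GABPB1, the partner of the ETS protein GABPA, read 2745 and 1341 (-1.03), while GABPA read 4396 and 4382. NRF1 read 1354 and 859 (-0.66) and YY1 30475 and 22204 (-0.46). ESRRA was the one gene at least 2-fold higher and GABPB1 the one at least 2-fold lower, with 2 in each direction at 1.5-fold.

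Of 13 mitochondrial chaperones and proteases, 12 passed the filter (not SPG7), with a median of -0.14. HSPE1, the co-chaperonin of HSPD1, read 15894 and 41208 (log2 ratio 1.37), while HSPD1 read 57002 and 56349. CLPP, the peptidase of the matrix protease ClpXP, read 3393 and 6020 (0.83), and its unfoldase CLPX 4852 and 2734 (-0.83). HSPE1 was the one gene beyond 2-fold, and at 1.5-fold 2 were higher and 1 lower.

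**Figure D4:**
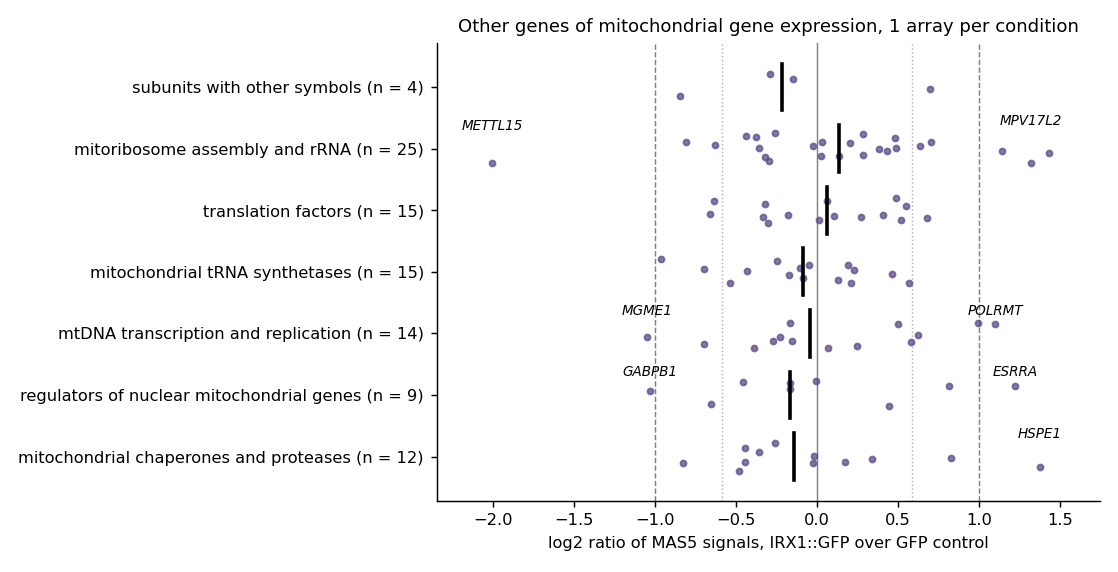
Log2 ratio, IRX1::GFP over GFP control, of the genes of each mitochondrial list that passed the filter (points), with the list's median as a bar and, per list and direction, 1 gene beyond 2-fold named; dotted lines mark 1.5-fold and dashed lines 2-fold. METTL15, at a log2 ratio of -2.01, lies farthest from 0, and the translation factors and tRNA synthetases hold no gene beyond 2-fold.

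The 56 genes of cytosolic ribosomal proteins past the filter lay in another signal range than the mitoribosomal ones, with a median signal of 66163 in GFP control and 72692 with IRX1::GFP, near the top of the array's range, beside 6355 and 6279. Their log2 ratios had an SD of 0.27 and a median of 0.11, and whether ratios are compressed at such signals was not tested. As deposited, 53 lay above 0 and 3 below, but 31 and 25 after centring on the median of all probe sets. Quantile normalization gave 27 and 26, with the rest at exactly 0, and loess gave 30 and 26. The mitoribosomal genes, at 45 and 30 as deposited and 36 and 39 after centring, had 46 above 0 and 29 below with either of the other methods. RPL10L, a retrogene form mostly known from testis, was the one beyond 2-fold (410 and 1405). The nuclear genes of the respiratory chain were counted together with those of the ATP synthase. Most of these complexes take up products of the mitoribosome. Of these 71 genes past the filter, 56 lay above 0 (49 after centring), with a median of 0.24 and an SD of 0.38. At 1.5-fold 12 were higher (16.9%) and 2 lower (2.82%). These shares were 16.6% and 16.9% over the brighter genes, and 22.6% and 15.2% over all genes kept. At least 2-fold higher were 3 (4.23%), beside 6.68% of the brighter genes and 10.4% of all genes kept. They were ATP5F1D (2305 and 4717), NDUFB10 (9622 and 19257) and COX6A2 (139, not above background, and 285). The differences between these groups were not tested. In bulk RNA fewer cells of a type and less RNA per cell cannot be told apart.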

How the data were processed

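RNA of GFP-sorted HEK293T cells was measured 48 h after transfection, with 1 array (HG-U133 Plus 2.0) for each condition. The deposited values are linear intensities, made by the authors with MAS5 according to the submitters' processing notes. For the MAS5 version and scaling target, the sources used here give nothing. Of 54675 probe sets, 41091 had 1 symbol, 41037 of them found in the RefSeq gene table of GRCh38.p14, and 1801 had several and were not named, 3 of them with a mitoribosomal symbol. The log2 ratio of both deposited signals was taken for each gene's brightest probe set by mean signal. Genes at or above the 50th percentile of mean signal were kept, and calls were made at 2-fold and 1.5-fold. No test was possible between single arrays, and precision is limited by the number of arrays.

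The members and lists were chosen with earlier results of these data known. Named were members beyond 2-fold, the 10 highest and 10 lowest ratios, the 5 highest signals, MRPL12, the MRPS18 paralogs, members with opposed probe sets, and up to 4 genes of each list with the largest changes. MRPL16, MRPS17, MRPL49, MRPS23, MRPL47, GABPA, YY1, HSPD1, the comparison genes and members whose other probe sets passed 2-fold were named after their values were seen. Alternatives were median centring, quantile and loess normalization, filters on low signals, a floor, other choices of probe set, and members by structure. Steps were tested on simulated data. Tables were handled with pandas 2.3.3 and numpy 2.4.6 in Python 3.11.15, loess and correlations computed with statsmodels 0.14.6 and scipy 1.17.1, and plots drawn with matplotlib 3.10.9.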

Additional observations from a re-analysis of the deposited data

How the results depend on the processing

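No paired analysis was possible because there is 1 array for GFP control and 1 for IRX1::GFP, and for the same reason no array could be left out. Centring the log2 ratios on their median over all probe sets other than controls moved the median of all genes kept from 0.07 to -0.034, and those of the mitoribosomal, large subunit and small subunit genes from 0.08, 0.12 and -0.07 to -0.023, 0.017 and -0.18. Relative to all genes kept, the mitoribosomal median was 0.01 with both, which had to be so because centring shifts every ratio alike. It was 0.07 after quantile normalization and 0.05 after loess. Relative to the genes kept by each filter, it was 0.11 at the 75th percentile and -0.035 with no filter. With only probe sets without a suffix it was -0.017, so its sign rested on the setting. With only probe sets that carry no suffix, 41 of the genes had a value: 2 were at least 2-fold lower (MRPL35 and MRPL12, the latter with a signal not above background) and 6 at least 1.5-fold higher. There MRPL18 and MRPS15 (log2 ratio 1.14) were the genes at least 2-fold higher. With the mean over a gene's probe sets, the log2 ratio was -0.56 for MRPL12, 0.45 for MRPL55 and -0.12 for MRPS18C. The other counts and medians moved by less than 1.5 times or 0.1 on the log2 scale. Over the alternatives run, the log2 ratio ranged from 1.29 to 1.44 for MRPL34, from 1.09 to 1.20 for MRPL18 and from -1.58 to -1.32 for MRPL35.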

Other observations

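Some transcripts with related names were read apart from the 75 genes. KGD4, a subunit of the oxoglutarate dehydrogenase complex that was earlier called MRPS36, read 6740 in GFP control and 5807 with IRX1::GFP. MRPL20-AS1, named for its place antisense to MRPL20, read 2147 and 2961, a log2 ratio of 0.46. The pseudogene MRPL45P2 read 169 and 122, the latter not above background.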
